A study of Mus musculus with 13 samples.

Results

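The miR-30 family was read here through 7 mature mouse miRNAs: the 5p members mmu-miR-30a-5p, mmu-miR-30b-5p, mmu-miR-30c-5p, mmu-miR-30d-5p and mmu-miR-30e-5p, and the 3p members mmu-miR-30a-3p and mmu-miR-30e-3p, named below without the species prefix. They were chosen by name among the 1079 mouse miRNAs on the array, not by their measured levels, though earlier results of these data were known. All 7 were among the 419 that passed the filter on detection. The samples were 13 primary abdominal neuroblastomas of TH-MYCN mice, as the series title names them, of which 7 were caspase-8 deficient and came from mice with bone marrow metastasis, and 6 had wild-type caspase-8 and came from mice without it. All 13 share the MYCN transgene, whose tyrosine hydroxylase promoter drives it in the sympathetic lineage. Genotype and metastasis changed together and cannot be told apart. The sources used here do not give how caspase-8 was lost or the age and sex of the mice. Each tumour is labelled a biological replicate and was hybridised to 1 array.

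MicroRNAs are short RNAs that guide the Argonaute complex to messenger RNAs, mainly through the seed, bases 2 to 8 from the 5′ end. The precursor hairpin yields a 5p and a 3p arm, and the arms carry different seeds. In human cells the family is known for holding the epithelial state through repression of SNAI1, and for repressing the autophagy gene BECN1. In the kidney its members are abundant.

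The mature sequences are shown because they set which members share targets and how little separates some of them. RefSeq sequences with GRCm38.p6 coordinates were found for 5 of the 7 members, and capitals mark the seed.
miR-30a-5p: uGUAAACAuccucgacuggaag
miR-30e-5p: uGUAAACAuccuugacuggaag
miR-30c-5p: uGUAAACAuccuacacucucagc
miR-30a-3p: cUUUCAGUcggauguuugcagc
miR-30e-3p: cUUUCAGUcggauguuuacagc
The other two members are miR-30b-5p and miR-30d-5p. The 5p sequences shown have the seed GUAAACA, which miR-384-5p also has in the same table, and the 3p sequences have UUUCAGU. Counting from the 5′ end, miR-30a-5p and miR-30e-5p differ only by C13U, and miR-30a-3p and miR-30e-3p only by G18A. miR-30c-5p differs from each of the other 5p sequences at 5 positions, all after 12 identical bases. How far the array probes separate sequences that differ by 1 base was not tested.

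The genes lie in 3 places, with coordinates of GRCm38.p6. Mir30a and Mir30c-2 are neighbours on chromosome 1, where miR-30a-5p is encoded at chr1:23272274-23272295, miR-30a-3p at chr1:23272315-23272336 and miR-30c-5p at chr1:23291714-23291736, all on the plus strand. Mir30e and Mir30c-1 lie inside Nfyc, a protein-coding gene on chromosome 4, with miR-30e-5p at chr4:120772660-120772681, miR-30e-3p at chr4:120772618-120772639 and the other copy of miR-30c-5p at chr4:120769584-120769606, all on the minus strand. Mir30b and Mir30d are neighbours on chromosome 15. An array signal for miR-30c-5p therefore cannot be assigned to the chromosome 1 or the chromosome 4 gene.

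Between 338 and 469 mouse miRNAs were detected per tumour. Levels are given as log2 of the summed probe signal after scaling each array to its 75th percentile, with a floor of 4.10. Probes differ in brightness, so each level is compared only with the same miRNA in other tumours. The arrays lay on 2 slides: slide 1 held 5 deficient and 2 wild-type tumours, and slide 2 held 2 deficient and 4 wild-type tumours, so that slide and group are partly confounded. Deficient replicate 2 and wild-type replicate 4 stood apart, with mean correlations with the other arrays of 0.851 and 0.874, against 0.902 to 0.938 for the other 11, and many of the values below are also given without them. Markers of neural and neuroendocrine cells were present: all 5 on the list, among them miR-375-3p and miR-7a-5p, were detected on all 13 arrays, and their sum was 11.82 to 13.03 in deficient and 12.21 to 13.32 in wild-type tumours. The liver marker miR-122-5p was detected on 1 array and did not exceed 4.13.

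All 5 of the 5p members were detected on all 13 arrays. The 3p members were near background. miR-30a-3p was detected in 6 of 7 deficient and 4 of 6 wild-type tumours, and it sat at the floor in deficient replicate 2 and wild-type replicate 4, while wild-type replicate 2 was the other tumour below detection. miR-30e-3p was detected in 6 of 7 deficient and 5 of 6 wild-type tumours, with deficient replicate 2 and wild-type replicate 4 below detection. The different probes of a 5p member correlated across the 13 tumours at 0.931 to 0.995, against 0.847 for the probes of miR-30a-3p and 0.521 for those of miR-30e-3p. None of the 9 probe pairs of the family disagreed on the sign of the group difference, but the 3p probes differed in its size. Deficient minus wild type was 0.21 and 0.007 for the 2 probes of miR-30e-3p, and 0.23 and 0.14 for those of miR-30a-3p.

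Of the 4 other miR-30 forms on the array, miR-30d-3p was detected on 0 arrays, miR-30b-3p on 2 and miR-30c-2-3p on 3, all of these 3 in deficient tumours. However, miR-30c-2-3p lay at the floor in 10 of the 13 tumours and did not exceed 4.66. miR-30c-1-3p was marked as detected on 11 arrays, but it lay at the floor in 7 of the 13 tumours. Its highest levels were 6.90 and 6.20 in deficient replicates 2 and 5, and 5.80 in wild-type replicate 4. Deficient replicate 2 and wild-type replicate 4 are the arrays that stood apart, and both were low for miR-30a-3p and miR-30e-3p.

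No member passed the test between caspase-8-deficient and wild-type tumours. In the limma fit over all 419 tested miRNAs, 0% were past an adjusted p of 0.05, and so were 0 of the 7 members; the smallest adjusted p was 0.729 among the members and 0.448 over all 419. At an unadjusted p under 0.05, 3.82% of all tested miRNAs passed, and 0 members did. The mean of 4 members was higher in deficient tumours and that of 3 was lower, with a median difference of 0.08 (log2), beside 54.2% higher and a median of 0.04 over all tested miRNAs. The 95% interval of the difference was -0.40 to 0.36 for miR-30d-5p and -0.30 to 0.46 for miR-30e-5p, the narrowest of the 7, and -0.68 to 0.61 for miR-30c-5p, the widest. In these bulk samples, fewer cells of a type and less RNA per cell cannot be told apart.

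Of the chromosome 1 products, miR-30a-5p had levels of 9.72, 10.02 and 10.42 (lowest, median, highest) in deficient tumours, against 9.01, 9.90 and 10.41 in wild-type tumours. The groups overlapped almost entirely. Only deficient replicate 1 lay above every wild-type tumour, and wild-type replicate 4 lay below all the others. The means were 10.02 ± 0.24 (SD, n = 7) in deficient and 9.82 ± 0.49 (SD, n = 6) in wild-type tumours, which gives a difference of 0.20 (SE 0.22, limma adjusted p = 0.729). On slide 1 it was 0.18 and on slide 2 0.44, and leaving out wild-type replicate 4 gave 0.04.

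Its partner arm miR-30a-3p had levels of 4.10, 5.14 and 5.39 in deficient tumours, against 4.10, 4.88 and 5.43 in wild-type tumours. Each group held 1 tumour at the floor, and the ranges nearly coincided. The difference was 0.16 (SE 0.26, limma adjusted p = 0.848), 0.32 when deficient replicate 2 was left out and 0.002 when wild-type replicate 4 was.

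Of the chromosome 4 products, miR-30e-5p had levels of 8.72, 8.80 and 9.37 in deficient tumours, against 8.44, 8.76 and 9.25 in wild-type tumours. The groups overlapped, with deficient replicate 1 highest and wild-type replicate 4 lowest of all 13. The difference was 0.08 (SE 0.18, limma adjusted p = 0.915), with 0.16 when wild-type replicate 5 was left out and -0.001 when deficient replicate 1 was.

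The 3p arm of the same precursor, miR-30e-3p, had levels of 4.51, 5.18 and 5.51 in deficient tumours, against 4.16, 4.99 and 5.47 in wild-type tumours. The same tumours marked the ends as for miR-30e-5p. The difference was 0.20 (SE 0.22, limma adjusted p = 0.729), but the slides did not share it: it was -0.02 within slide 1 and 0.45 within slide 2. It was 0.31 when deficient replicate 2, below detection, was left out, 0.05 when wild-type replicate 4, also below detection, was, and 0.31 when wild-type replicate 5 was.

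Of the chromosome 15 neighbours, miR-30b-5p had levels of 8.13, 9.03 and 9.41 in deficient tumours, against 8.67, 9.01 and 9.55 in wild-type tumours. The difference was -0.11 (SE 0.23, limma adjusted p = 0.897). Deficient replicates 2 and 5 lay below every wild-type tumour, and wild-type replicate 5 was the highest. Without deficient replicate 2 the difference was 0.02.

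miR-30d-5p had levels of 7.59, 7.82 and 8.40 in deficient tumours, against 7.63, 7.87 and 8.37 in wild-type tumours. Deficient replicates 4 and 6 held the lowest and the highest value of all 13. The difference was -0.02 (SE 0.18, limma adjusted p = 0.989), with 0.23 within slide 1 and -0.21 within slide 2.

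miR-30c-5p, which both the chromosome 1 and the chromosome 4 genes encode, had levels of 7.21, 8.06 and 8.73 in deficient tumours, against 7.30, 8.13 and 8.74 in wild-type tumours. The groups spanned the same range. The difference was -0.04 (SE 0.30, limma adjusted p = 0.989), 0.20 when slide was a block, 0.25 on slide 1 and 0.14 on slide 2.

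**Figure D1:**
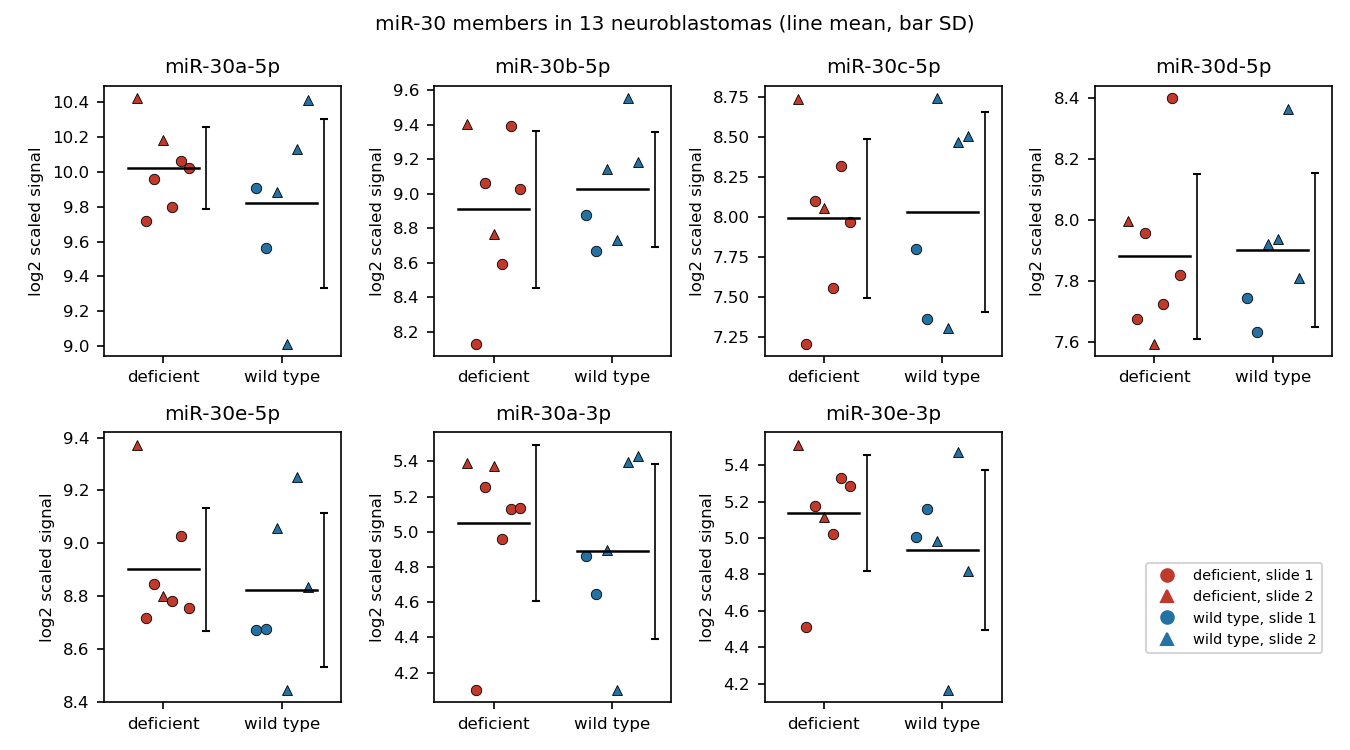
Log2 scaled signal (y axis) of the 7 miR-30 members in 7 caspase-8-deficient tumours (left, red) and 6 wild-type tumours (right, blue), 1 panel per member. Circles are slide 1 and triangles slide 2, the line is the group mean and the bar beside it ± 1 SD, and the groups overlap in every panel.

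**Figure D2:**
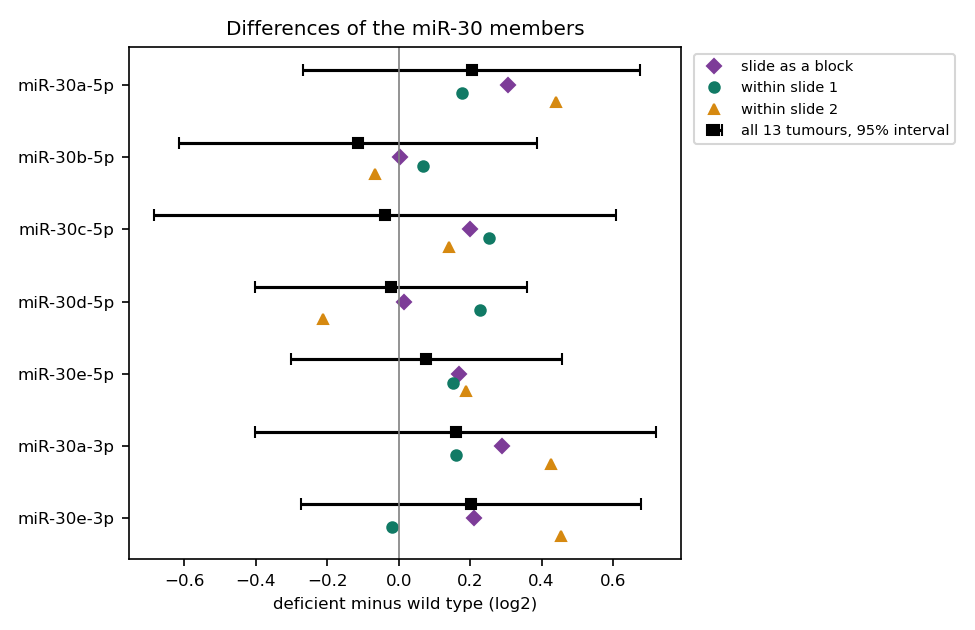
Difference of each miR-30 member, deficient minus wild type in log2 units (x axis), over all 13 tumours with its 95% interval (black), with the slide as a block, and on slide 1 and slide 2 alone. Every 95% interval includes 0, and miR-30b-5p, miR-30d-5p and miR-30e-3p have opposite signs within the slides.

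For each of the 7 members, the difference between the group means was smaller than the SD within either group. Over all 13 tumours, the SD of miR-30d-5p and of miR-30e-5p was at percentile 5.73 and 5.97 of the SDs of the 419 tested miRNAs, which puts them among the least variable of these. miR-30c-5p was at percentile 50.4, and the remaining members were at 28.6 (miR-30a-5p) to 39.6 (miR-30a-3p). In deficient replicate 1, all 7 members were among their own 3 highest tumours, and in wild-type replicate 5, 5 of 7 were. In deficient replicate 2 and wild-type replicate 2, 6 of 7 members were among their own 3 lowest tumours, and in wild-type replicate 4, 5 of 7 were. Each group thus held tumours that were high and tumours that were low across most of the family.

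**Figure D3:**
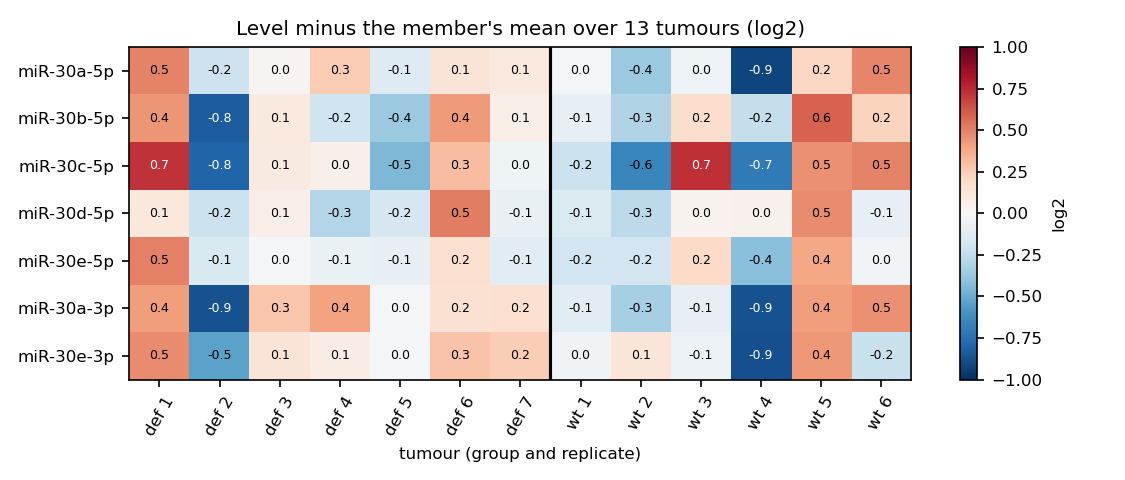
Log2 level of each miR-30 member (rows) minus that member's mean over 13 tumours, for 7 deficient (def, left of the line) and 6 wild-type (wt, right) tumours. Deficient 1 and wild type 5 are above the mean for all 7 members, as is deficient 6, while deficient 2, deficient 5 and wild type 1 are below it for all 7.

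Arms and neighbours were next compared within each tumour, as log2 ratios that cancel the scaling of the array. Because of probe brightness, the size of a ratio is not the ratio of molecules, and only its variation between tumours is read. Of the 4 ratios between 5p members, 0 passed the test between the groups after adjustment over all 6 ratios (two-sided exact permutation over 1716 splits), and the smallest raw p was 0.357. The 2 arm ratios include tumours whose 3p arm was below detection, and no p is given for these ratios over all tumours. Where the 3p arm was at the floor, the ratio is a lower bound.

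The log2 ratio of miR-30a-5p over miR-30a-3p was 4.70, 4.89 and 5.62 (lowest, median, highest) in deficient tumours, against 4.74, 4.95 and 5.04 in wild-type tumours. The highest value was that of deficient replicate 2. It is a lower bound, since the 3p arm was at the floor there, and so is the 4.91 of wild-type replicate 4, also at the floor. The 4.91 of wild-type replicate 2 rests on a 3p level of 4.65, above the floor but below detection. Without deficient replicate 2 and wild-type replicate 4 the means differed by -0.07, a value that still holds wild-type replicate 2. For miR-30e-5p over miR-30e-3p the ratio was 3.47, 3.70 and 4.21 in deficient tumours, against 3.52, 3.90 and 4.28 in wild-type tumours. The 4.21 of deficient replicate 2 and the 4.28 of wild-type replicate 4 are uncertain. They rest on miR-30e-3p levels of 4.51 and 4.16, above the floor but below detection in these 2 tumours. Without them the difference was -0.12 (two-sided exact permutation p = 0.307, not adjusted).

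The ratio of the neighbours miR-30b-5p over miR-30d-5p was 0.46, 1.11 and 1.41 in deficient tumours, against 0.79, 1.16 and 1.37 in wild-type tumours, with a difference of -0.09 (exact permutation p = 0.554). Deficient replicate 2 was the lowest. Among 5p members of different loci, miR-30a-5p over miR-30d-5p was the most variable ratio, with an SD of 0.41 over all tumours against 0.23 to 0.26 for the other 5. It was 1.66, 2.07 and 2.59 in deficient tumours, against 1.08, 1.95 and 2.60 in wild-type tumours. The difference was 0.22 (exact permutation p = 0.357), -0.05 within slide 1 and 0.65 within slide 2. With 1 tumour left out, its lowest value was 0.06, when that tumour was wild-type replicate 4, and its highest 0.36, when it was wild-type replicate 6. The remaining ratios, miR-30a-5p over miR-30e-5p and miR-30e-5p over miR-30d-5p, differed by 0.13 (exact permutation p = 0.41) and 0.10 (exact permutation p = 0.457). The first was 0.06 without the arrays that stood apart and, with 1 tumour left out, lay between 0.04, when wild-type replicate 4 was missing, and 0.24, when wild-type replicate 6 was. The second was 0.01 without those arrays and lay between 0.02, when wild-type replicate 4 was missing, and 0.16, when deficient replicate 6 was. These 4 ratios had an adjusted p of 0.664.

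While no member passed the test between the groups, the members moved together from tumour to tumour. Of the 21 pairs of members, 18 had a Pearson r over 0.5, which 14.2% of the 87571 pairs of tested miRNAs also reached. The median r was 0.713 among member pairs and close to 0 over all pairs. After Benjamini-Hochberg adjustment over the 21 pairs, 16 had an adjusted p under 0.05 by Pearson r and 13 by Spearman rho (100000 permutations). Members of a pair share the array and its scaling, so the pairs are not independent of each other.

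Fewer pairs passed without deficient replicate 2 and wild-type replicate 4, which also leaves fewer tumours. Without them, 16 of 21 pairs still had an r over 0.5, beside 15.3% of all tested pairs, and the median r was 0.599, but 6 of 21 passed the adjustment. The 6 were miR-30a-5p with miR-30a-3p, miR-30b-5p with miR-30d-5p, miR-30a-5p with miR-30c-5p, and the 3 pairs among miR-30b-5p, miR-30c-5p and miR-30e-5p. Leaving out any 1 tumour gave 12 to 17 pairs. Within slide 1, 7 of 21 pairs passed with a median r of 0.758 (n = 7, exact permutation), and within slide 2, 0 passed with a median r of 0.75 (n = 6, exact permutation). Within deficient tumours 6 passed and within wild-type tumours 0 did, with median r of 0.775 (n = 7) and 0.723 (n = 6, both by exact permutation). With normexp background, which took the median signals of spot and background in place of the processed signal and added an offset of 50, 5 of 21 pairs passed, with a median r of 0.51.

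The arms of the Mir30a precursor were the closest pair. The r of miR-30a-5p with miR-30a-3p was 0.872 (permutation p = 9e-05, adjusted p = 0.00126) and rho was 0.919 (permutation p = 5e-05). Among all other tested miRNAs, each arm was the one most correlated with its partner, also without the 2 arrays that stood apart, where r was 0.904. With deficient replicate 1 and wild-type replicate 4 left out, the tumours farthest from the median, r was 0.81. On slide 1 it was 0.715 and on slide 2 0.976, neither past adjustment within the slide. With normexp background on median signals the sign turned, to -0.52.

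The arms of the Mir30e precursor had an r of 0.744 (permutation p = 0.00393, adjusted p = 0.00869) and a rho of 0.621 (permutation p = 0.0266). Without the 2 arrays that stood apart r was 0.657, with an adjusted p of 0.0755. On slide 1 it was 0.483 and on slide 2 0.934, and it was 0.627 without the 2 tumours farthest from the median. With normexp background it was 0.0646. Ranked by r among all other tested miRNAs, miR-30e-3p was at 13 for miR-30e-5p, and miR-30e-5p at 20 for miR-30e-3p. Without the 2 arrays that stood apart these ranks were 24 and 12.

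The neighbours miR-30b-5p and miR-30d-5p had an r of 0.769 (permutation p = 0.00174, adjusted p = 0.00609) and a rho of 0.786 (permutation p = 0.00236). It was 0.865 without the 2 arrays that stood apart, 0.737 without the 2 tumours farthest from the median, 0.794 within slide 1, 0.75 within slide 2 and 0.553 with normexp background, where it did not pass. Ranked by r among all other tested miRNAs, miR-30d-5p was at 18 for miR-30b-5p, and miR-30b-5p at 5 for miR-30d-5p. Without the 2 arrays that stood apart both ranks were 2. Of the 6 pairs that held miR-30d-5p, only those with miR-30b-5p and with miR-30e-5p passed by Pearson r. The r with miR-30e-5p was 0.598 (permutation p = 0.0309, adjusted p = 0.0406). Its rho was 0.599 (permutation p = 0.0338, adjusted p = 0.0507), which did not pass. The r was 0.958 within slide 1, 0.51 within slide 2 and 0.43 without the 2 tumours farthest from the median. By r, this pair did not pass when any of deficient replicates 2, 5, 6 and 7 was left out. The same held for wild-type replicates 1, 2, 5 and 6. Its lowest r was 0.461, without wild-type replicate 5.

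Pairs of different loci covered a wide range. The median r of these 12 pairs was 0.657, and 0.556 without the 2 arrays that stood apart. miR-30b-5p with miR-30e-5p had an r of 0.74, and 0.824 without those arrays (permutation, adjusted p = 0.00869 and 0.0111). miR-30a-5p with miR-30e-5p had 0.713 and 0.552 (permutation, adjusted p = 0.0133 and 0.11). miR-30a-5p with miR-30d-5p had the lowest r of the family, 0.194 (permutation p = 0.514, adjusted p = 0.514), with a rho of 0.33 (permutation p = 0.27). On slide 1 it was 0.733 and on slide 2 -0.0474, and it was 0.332 without the 2 tumours farthest from the median. Ranked by r among all other tested miRNAs, miR-30d-5p was at 158 for miR-30a-5p, and miR-30a-5p at 114 for miR-30d-5p. The 3p arms miR-30a-3p and miR-30e-3p had an r of 0.791 (permutation p = 0.00255, adjusted p = 0.00765) but a rho of 0.558 (permutation p = 0.0502), and r was 0.302 without the 2 arrays that stood apart, where both 3p members were below detection. It was 0.878 within slide 1 and 0.839 within slide 2. Likewise miR-30a-5p with miR-30e-3p had an r of 0.701 (permutation p = 0.0106, adjusted p = 0.0186) over all tumours. Its rho was 0.571 (permutation p = 0.0435, adjusted p = 0.0609), which did not pass. Leaving out wild-type replicate 4 gave an r of 0.377, leaving out both arrays 0.204. It was 0.196 without the 2 tumours farthest from the median, 0.506 within slide 1 and 0.804 within slide 2.

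**Figure D4:**
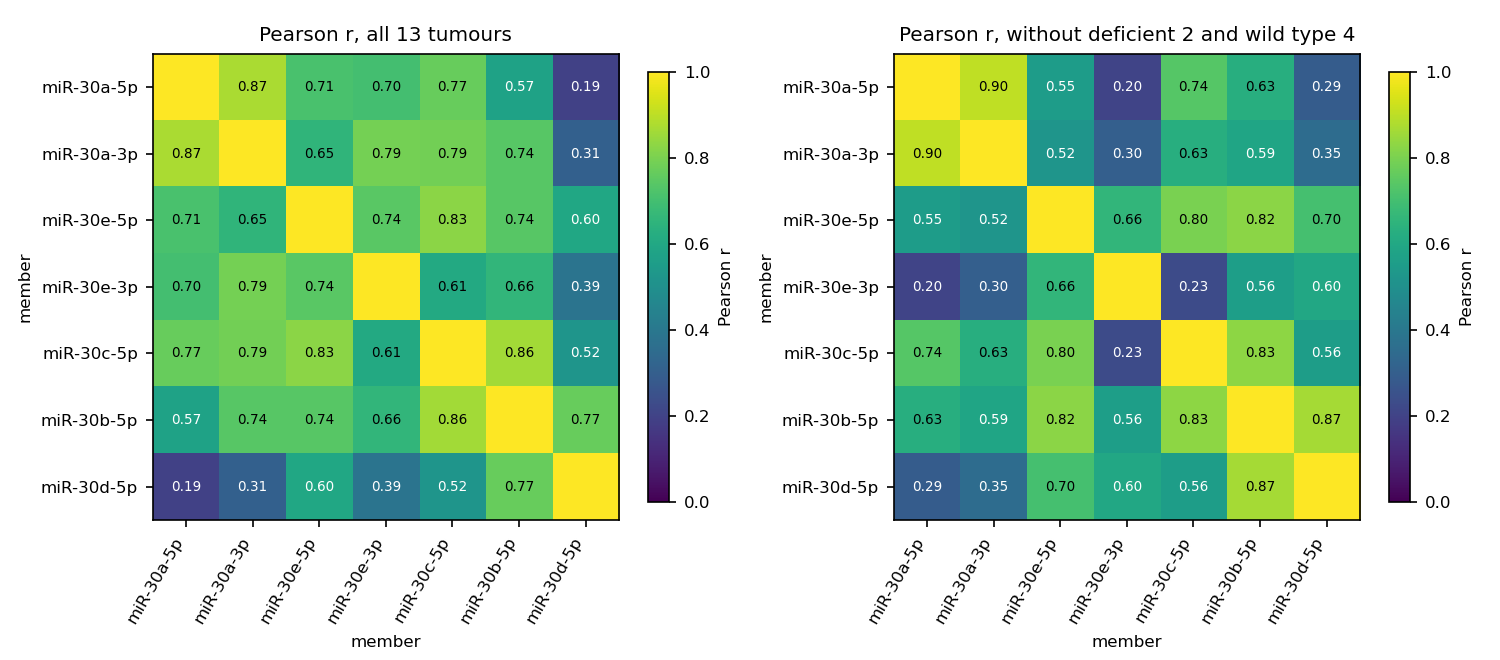
Pearson r (colour, 0 to 1) between the 7 miR-30 members over all 13 tumours (left) and over 11 tumours without deficient replicate 2 and wild-type replicate 4 (right). miR-30a-5p with miR-30a-3p is the highest in both, at 0.87 and 0.90, while miR-30a-3p with miR-30e-3p is 0.79 on the left and 0.30 on the right.

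miR-30c-5p followed 5p members of all 3 places. Its r was 0.863 with miR-30b-5p (permutation p = 0.00012, adjusted p = 0.00126), 0.825 with miR-30e-5p (permutation p = 0.00041, adjusted p = 0.00287) and 0.769 with miR-30a-5p (permutation p = 0.00094, adjusted p = 0.00445). The rho values were 0.879 (permutation p = 0.00017), 0.879 (permutation p = 0.00027) and 0.742 (permutation p = 0.00485) in the same order. Without the 2 arrays that stood apart r was 0.83, 0.797 and 0.737. Without the 2 tumours farthest from the median it was 0.857, 0.797 and 0.716, within slide 1 it was 0.953, 0.756 and 0.903, and within slide 2 it was 0.764, 0.861 and 0.815. The pair with miR-30d-5p was 0.521 over all tumours (permutation p = 0.0673, adjusted p = 0.0786). Whether the r values of these pairs differ from each other was not tested.

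**Figure D5:**
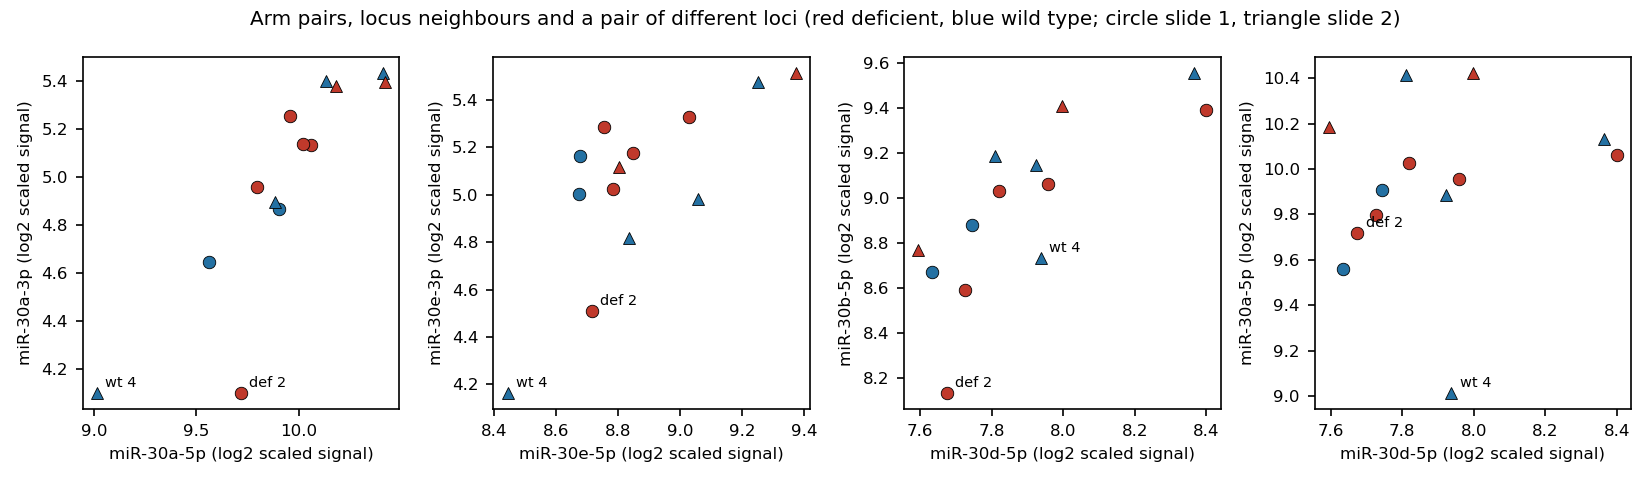
Log2 scaled signals of 2 miR-30 members in each tumour, for the arms of Mir30a, the arms of Mir30e, the neighbours miR-30d-5p and miR-30b-5p, and miR-30d-5p with miR-30a-5p of another locus (red deficient, blue wild type, circles slide 1, triangles slide 2). Deficient 2 and wild type 4 (def 2, wt 4) lie at the low end of the arm pairs, and the last panel shows no clear relation, with an r of 0.194.

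Outside the family, the miRNAs whose pattern over the 13 tumours was most like a member differed between members, as a description by Pearson r with no test. miR-30b-5p was closest to miR-26a-5p (r 0.912), miR-139-5p (0.901) and miR-26b-5p (0.883). miR-30c-5p was closest to miR-185-5p (0.916), miR-148b-3p (0.898) and miR-23b-3p (0.841). miR-30e-5p was closest to let-7f-5p (0.883), let-7g-5p (0.842) and miR-350-3p (0.825).

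miR-30d-5p had other companions than its neighbour: miR-146a-5p (r 0.866), which is known from activated leukocytes, miR-34a-5p (0.844), a p53 target, and miR-21-5p (0.795). miR-30a-5p was closest to miR-140-5p (0.796), miR-185-5p (0.761) and let-7d-5p (0.758), and without the 2 arrays that stood apart these were 0.773, 0.72 and 0.463. miR-30a-3p was closest to miR-26a-5p (0.827), miR-140-5p (0.825) and miR-199a-3p (0.794), which were 0.806, 0.736 and 0.653 without those arrays. miR-30e-3p was closest to miR-1839-3p (0.904), miR-151-5p (0.9) and let-7d-5p (0.88), which were 0.757, 0.632 and 0.69 without them. The mean of the 5p members was closest to miR-26a-5p (0.877), let-7f-5p (0.871) and miR-185-5p (0.866). For the other targets the r without those arrays was 0.755 to 0.946. All these values share the arrays and their scaling.

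Markers of other cell types moved with some members. Over 49 relations between 7 marker lists and the 7 members, 0 passed adjustment by Pearson r (smallest adjusted p 0.0831, permutation) and 7 by Spearman rho. The neural and neuroendocrine list passed with no member. Its r was -0.114 (miR-30d-5p) to 0.41 (miR-30e-3p) over all tumours. Without the 2 arrays that stood apart it was negative with every member, -0.603 (miR-30a-3p) to -0.13 (miR-30e-3p). Without the 2 tumours farthest from the median of the list's sum it was -0.497 (miR-30a-5p) to 0.117 (miR-30e-3p). The range of r was -0.346 (miR-30e-5p) to 0.0958 (miR-30e-3p) within slide 1 and 0.179 (miR-30d-5p) to 0.974 (miR-30c-5p) within slide 2. The log2 summed level of 3 tested kidney miRNAs of the 5 on the list had an r of 0.731 and a rho of 0.841 with miR-30b-5p (permutation, adjusted p = 0.0831 and 0.0152), and 0.739 and 0.797 with miR-30c-5p (permutation, adjusted p = 0.0831 and 0.0223). Without the 2 tumours farthest from the median of that sum r was 0.785 and 0.646, within slide 1 it was 0.929 and 0.927, and within slide 2 it was 0.445 and 0.506. It was 0.666 and 0.712 without the 2 arrays that stood apart. Ranges of a sum, here and below, cover all miRNAs of a list on the array, tested or not. For the 5 kidney miRNAs the sum was low, 6.60 to 8.03 in deficient and 6.81 to 7.70 in wild-type tumours. miR-215-5p was detected on 0 arrays, miR-204-5p on 2, miR-194-5p on 6 at no more than 5.67, miR-192-5p on 8 at no more than 5.44, and miR-196a-5p, which is encoded in the Hox clusters, on 9 at up to 7.15.

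Of the mesenchyme list, all 5 members were tested, and its sum was 9.69 to 11.11 in deficient and 9.96 to 11.37 in wild-type tumours. It had an r of 0.647 with miR-30a-5p, 0.67 with miR-30b-5p and 0.683 with miR-30a-3p, and a rho of 0.841, 0.764 and 0.79 (permutation, adjusted p of rho = 0.0152, 0.0277 and 0.0223). Without the 2 tumours farthest from the median the r values were 0.505, 0.701 and 0.652, and within slide 2 they were 0.628, 0.319 and 0.599. Without the 2 arrays that stood apart they were 0.816, 0.588 and 0.772. The leukocyte list, with 4 of 5 tested, summed to 9.70 to 11.99 in deficient and 9.38 to 12.20 in wild-type tumours. It had an r of 0.703 and a rho of 0.731 with miR-30d-5p (permutation, adjusted p = 0.0831 and 0.0433), an r of 0.573 without the 2 tumours farthest from the median, 0.624 within slide 1, 0.802 within slide 2 and 0.689 without the 2 arrays that stood apart. The endothelial pair miR-126-3p and miR-126-5p summed to 10.12 to 12.13 in deficient and 10.57 to 11.48 in wild-type tumours, with an r of 0.645 and a rho of 0.786 with miR-30e-3p (permutation, adjusted p = 0.102 and 0.0223) and an r of 0.433 without the 2 tumours farthest from the median and 0.633 without the 2 arrays that stood apart. The part of these cell types in the members' variation was not tested.

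The epithelial miRNAs, a list that also stands for the other miRNAs known to keep cells epithelial, were near absent. Of its 7 members, among them the miR-200 family, 0 were tested and 5 were detected on no array, and the sum, 6.91 to 7.17 in deficient and 6.91 to 7.15 in wild-type tumours, starts at the floor of all 7. The muscle list, with 4 of 6 tested, ranged from 6.96 to 13.14 in deficient and 7.63 to 11.82 in wild-type tumours, and miR-208b-3p and miR-499-5p were detected on no array. Its highest r with any member in size over all tumours was -0.36, with miR-30d-5p, where it was -0.028 within slide 1 and -0.797 within slide 2. With miR-30b-5p it was 0.314 within slide 1 and -0.716 within slide 2. Of the erythroid list, all 3 on the array were tested, and its sum was 14.29 to 16.35 in deficient and 12.29 to 16.08 in wild-type tumours. Its highest r was 0.473, with miR-30a-5p, which did not pass adjustment, and it was 0.678 without the arrays that stood apart. In none of the lists was a miRNA past the threshold between deficient and wild-type tumours.

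The members were also set against array brightness, the log2 75th percentile, and the number of detected miRNAs. Of these 14 relations, 0 passed adjustment by Pearson r and 1 by Spearman rho. That 1 was brightness with miR-30a-5p, although each array was scaled by its brightness. The log2 75th percentile had an r of 0.677 and a rho of 0.786 with miR-30a-5p (permutation, adjusted p = 0.0776 and 0.0318 over 14 relations), and 0.701 and 0.718 with miR-30a-3p (permutation, adjusted p = 0.0776 and 0.0508). For miR-30a-5p r was 0.962 within slide 1 and 0.664 within slide 2, and 0.573 without the 2 arrays farthest from the median brightness. For miR-30a-3p these were 0.768, 0.611 and 0.707. For miR-30d-5p the pooled r was 0.14, with 0.628 within slide 1 and -0.624 within slide 2. The part of brightness in the correlations among members was not tested.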

How the data were processed

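MicroRNAs of 13 tumours were measured on 1-colour Agilent mouse miRNA arrays from total RNA, per the labels' protocols. The deposited scanner files hold 1 intensity per spot on a linear scale, background-subtracted by the authors' scanner software and not scaled between arrays. Their headers name Feature Extraction 10.7.3.1, and the submitters' processing notes name 10.5.1.1. Per the file headers, the deposited marks for detection and outliers are yes or no flags, other information than a level. The series matrix as deposited holds log2 values, with a median of 3.82 in the 1 array where it was taken. It was made by the authors with steps unstated in the labels and headers, and was an alternative.

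Of 47604 spots, 2164 were controls and were left out, and no spot was saturated. Spots without outlier marks were averaged per probe and summed per miRNA. Scaling divided each sum by its array's percentile 75, taken from 294 mouse miRNAs that every array detected, and returned it to a common scale. Values under a floor of 17.2 (percentile 1 of detected values) were set to it before log2. Tests covered the 419 mouse miRNAs with detection on 6 or more arrays, by limma 3.58.1 (R 4.3.3), two-sided, with Benjamini-Hochberg adjustment over all 419 and a threshold of 0.05. Log ratios were tested by exact permutation over 1716 splits (315 with slide as a block), and correlations by 100000 permutations, exactly for 7 tumours or fewer. Precision is limited by how many arrays there are. The tests were checked on simulated data. miRNAs outside the family were named if they were among the 3 with the highest r to a member or to the 5p mean, or if they stood on a marker list. The members, lists and tests were chosen with earlier results of these data known. Normexp with an offset of 50 used median spot and background signals. Alternatives covered scaling, background, probe summary, filter, floor, slide, replicate number, array weights, the series matrix and leaving out each tumour. Omission of the arrays that stood apart, and of 3 tumours with high muscle miRNAs, was chosen after seeing the data. Sequences and gene positions are RefSeq's (GRCm38.p6). The array design named mm9, and no coordinate of it was used.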

Additional observations from a re-analysis of the deposited data

Results flagged for a closer look

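Of 26 groups of values examined, 2 had a sample far from the others, where chance alone flags about 1 in 20. Both came from deficient replicate 2. Its miR-30a-3p level was 4.10, the floor, and far below the other 6 deficient tumours. Its log2 ratio of miR-30a-5p over miR-30a-3p was 5.62, far above them, and it is a lower bound, since it uses the same value at the floor.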

How the results depend on the processing

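Every alternative kept 0 members and 0 of the tested miRNAs past the threshold between the groups (smallest adjusted p over all alternatives 0.0644, with array weights), with 7 to 63 miRNAs at an unadjusted p under 0.05 against 16. Replicate numbers are shared by the groups, but 0 of 6 same-numbered pairs correlated best with each other (r -0.220 to 0.194). This gave no sign that the numbers pair the tumours, but so few arrays cannot exclude it. With the replicate block 63 passed at an unadjusted p. Without scaling, the median of all tested miRNAs shifted to 0.23 and 73% were higher in deficient tumours, and with normexp background 37.7% were, against 54.2%. Signs of small differences turned in 31 comparisons and held in 187. Without scaling the difference was 0.079 for miR-30b-5p, 0.156 for miR-30c-5p and 0.173 for miR-30d-5p. With array weights it was 0.0455, 0.118 and 0.141, with slide as a block 0.00372, 0.198 and 0.0146, and within slide 1 it was 0.068, 0.252 and 0.227 in the same order. miR-30c-5p was at 0.141 within slide 2. With the percentile over all miRNAs, miR-30c-5p was at 0.00812 and miR-30d-5p at 0.0247. miR-30d-5p was at 0.000532 with the total gene signal and 0.0206 without the arrays that stood apart. miR-30e-3p was at -0.0185 within slide 1, and with normexp background it was at -0.0664 and miR-30a-3p at -0.062. Leaving out 1 tumour gave -0.197 to 0.0156 for miR-30b-5p, -0.183 to 0.105 for miR-30c-5p, -0.107 to 0.0718 for miR-30d-5p and -0.00117 to 0.163 for miR-30e-5p. Among log ratios, 9 comparisons turned and 155 held. miR-30a-5p over miR-30a-3p was at -0.0621 with quantile normalization and -0.0662 without the arrays that stood apart. miR-30e-5p over miR-30e-3p was at 0.0893 with normexp background and 0.17 within slide 1, where miR-30a-5p over miR-30d-5p was at -0.0498 and miR-30e-5p over miR-30d-5p at -0.0759. miR-30b-5p over miR-30d-5p was at 0.148 within slide 2. Leaving out 1 tumour gave -0.0631 to 0.0891 for the first ratio and -0.16 to 0.0019 for the last, and the arm ratios hold 3p levels below detection. Of 21 member pairs, 16 passed, against 21 without scaling, 5 with normexp background, 7 within slide 1, 0 within slide 2, 6 without the arrays that stood apart and 12 to 17 without 1 tumour. With the total gene signal and with 4 times the floor, 6 and 7 of 10 passed, since the 3p members were constant there and gave no value. The setting with normexp background changed both the input, to median signals, and the correction, and it turned r for miR-30a-5p with miR-30a-3p (-0.520), miR-30e-3p (-0.559) and miR-30d-5p (-0.159), for miR-30b-5p with miR-30a-3p (-0.223) and miR-30e-3p (-0.167), and for miR-30c-5p with both (-0.285 and -0.262). Within slide 2, miR-30a-5p with miR-30d-5p was at -0.0474. The cause was not tested. Dim signal limits the 3p members.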
